A study of Arabidopsis thaliana with 6 samples.

Results

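The genes described here are 44 nuclear genes of Arabidopsis thaliana that encode antenna proteins of the photosystems, photosystem subunits, the small subunit of Rubisco and Rubisco activase. They were chosen by locus identifier from the 33602 genes of the count table. The rule used no measured values, but earlier results of these data were known. The list holds 4 antenna genes of photosystem I (LHCA1 to LHCA4), 9 genes of the major antenna of photosystem II (LHCB1.1 to LHCB1.5, LHCB2.1 to LHCB2.3 and LHCB3), 4 of its minor antenna (LHCB4.1, LHCB4.2, LHCB5 and LHCB6), 12 subunit genes of photosystem I, 10 of photosystem II, the 4 Rubisco small subunit genes and RCA.

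In the thylakoid membrane, antenna proteins bind chlorophyll and pass excitation energy to the reaction centres of the photosystems, whose core subunits are mostly encoded in the chloroplast while many outer subunits are encoded in the nucleus. Rubisco, which fixes carbon dioxide, joins a chloroplast-encoded large subunit with small subunits from the nuclear RBCS genes. Transcripts of these nuclear genes are well known to accumulate in the light in seedlings through phytochromes, photoreceptors that red light turns into the active Pfr form and far-red light turns back.

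All samples were whole seeds of the Col-0 wild type. Seeds were imbibed in darkness for 2 h, given a far-red pulse of 20 min (calculated Pfr/P of 0.03, the share of phytochrome in the active form), and kept for 3 days at 5 °C in the dark. The Rp group then received a red pulse of 20 min (0.05 µmol m-2 s-1, Pfr/P of 0.87) and the FRp group a far-red pulse of 20 min (42 µmol m-2 s-1, Pfr/P of 0.03). Seeds went back to darkness and were collected 12 h after the pulse, as 3 biological replicates for the Rp and 3 for the FRp. No seed saw light between the pulse and the harvest, and a whole seed pools the embryo with the endosperm and seed coat, so that fewer cells of a type and less RNA per cell cannot be told apart.

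Gene counts summed to 29802319, 26057621 and 31286686 reads in the Rp libraries and 24234421, 32387080 and 29712702 in the FRp libraries. Levels are given as CPM, the count out of 1000000 after TMM normalization, a scaling that assumes most genes do not change, and a gene was called when edgeR's quasi-likelihood test gave a Benjamini-Hochberg adjusted p under 0.05 together with a change of over 1.5-fold. Of 16924 genes that passed the filter on low counts, 4877 were called higher in Rp seeds and 4536 lower, with a median log2 fold change of 0.02. Scaled by library totals instead, 7524 genes were called higher and 2568 lower, and the median of all genes moved to 0.45. Seed storage and oil body transcripts, of which all 6 listed genes were lower after the Rp, made up 0.79% to 1.18% of reads in the Rp libraries, against 9.35% to 10.6% in the FRp libraries. The 2 endosperm markers together took 0.142% to 0.272% of reads in Rp libraries and 0.573% to 0.753% in FRp libraries, almost all of them from EPR1, with ZOU at 2 reads in 1 Rp library and 0 in the others. The root hair markers EXPA7, COBL9 and PRP3 had 0 reads in every library. The part of these shifts in the results below was not tested.

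Of the 44 genes, 29 passed the filter and were tested. Of these, 20 passed in both conditions and 1, PSAH1, through the FRp libraries alone. The 8 that passed through the Rp libraries alone were LHCA2, LHCB1.2, PSAD1, PSAE1, PSAL, PSAO, PSBO2 and PSBY. After the Rp, 15 of the 29 were called higher and 6 lower, against a background of 55.6% of all tested genes called, 28.8% higher and 26.8% lower. Among the 20 members that passed in both conditions, 14 were called (70.0%), 9 higher and 5 lower, beside 51.9% of all genes that passed in both. The 9 that passed in 1 condition alone had to be high there, so the counts over all 29 are a description. The median log2 fold change of the 29 tested members was 0.73, a description for the same reason. Among the 20 that passed in both conditions, the middle values were 0.29 (PSBW) and 0.37 (PSBP1). Scaled by library totals, 18 members were called higher and 4 lower. The groups did not overlap in 25 of the 29 tested members (86.2%), beside 78.3% of all tested genes. The called members included large changes in both directions within the same complexes, as the plot of fold changes shows.

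**Figure D1:**
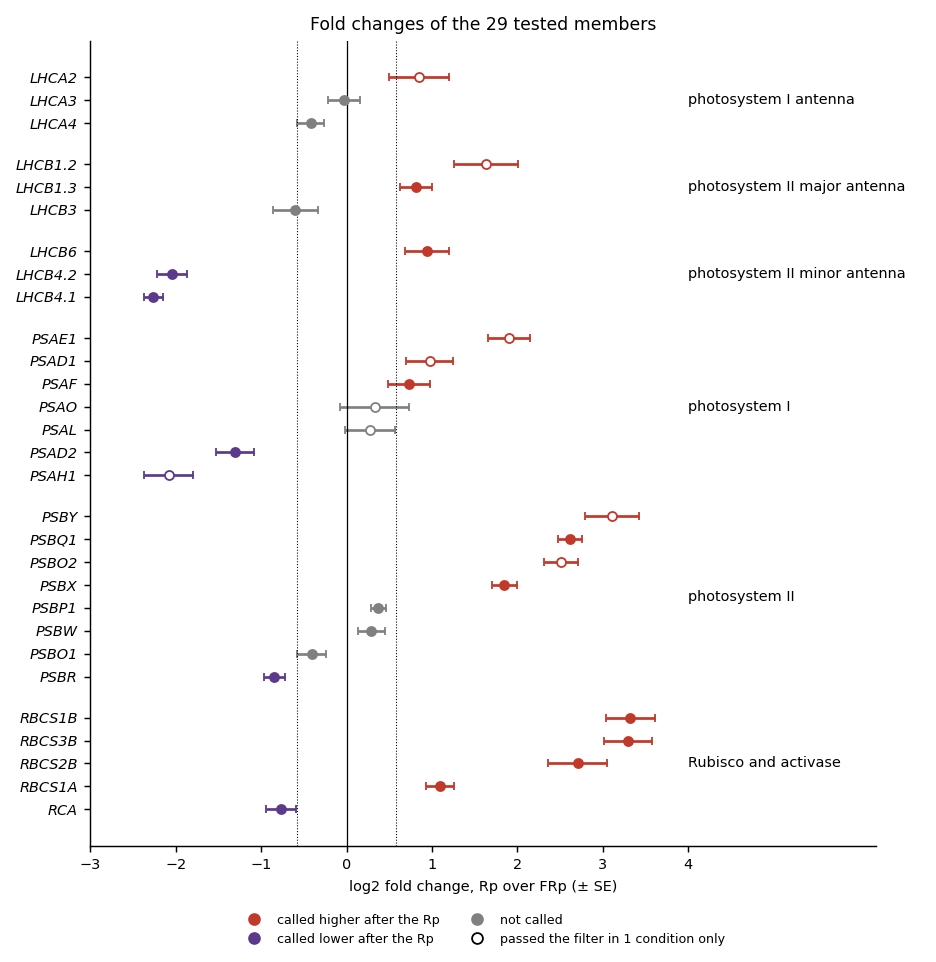
Log2 fold change of Rp over FRp (horizontal axis) with its standard error for each of the 29 tested genes, grouped by role. Red points were called higher after the Rp (15 genes), purple points called lower (6), grey points not called (8), open points passed the filter in 1 condition only, and dotted lines mark a fold of 1.5. PSBY and the 3 RBCS B genes lie farthest to the right and LHCB4.1, PSAH1 and LHCB4.2 farthest to the left.

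Together the 44 genes took 0.159%, 0.129% and 0.118% of the reads in the 3 Rp libraries and 0.0527%, 0.0514% and 0.0607% in the 3 FRp libraries. Most of those reads came from the RBCS genes, at 77.0%, 74.9% and 74.0% of the members' reads in Rp libraries and 50.9%, 48.6% and 55.3% in FRp libraries. In CPM, the 44 genes summed to 1175 ± 199 in Rp seeds and 641 ± 70.9 in FRp seeds (SD, n = 3 each). Without the 4 RBCS genes, the other 40 summed to 288 ± 30.4 in Rp seeds and 308 ± 13.05 in FRp seeds, and the groups overlapped. As a raw share of library reads, the same 40 genes took 0.0368%, 0.0325% and 0.0307% in Rp libraries, against 0.0259%, 0.0264% and 0.0272% in FRp libraries, so that their standing as a sum depends on the scaling. The minor antenna accounted for 2.83% to 3.50% of the members' reads in Rp libraries and for 18.4% to 22.01% in FRp libraries. The photosystem II subunits took 15.3% to 17.4% in Rp libraries and 16.2% to 18.02% in FRp libraries.

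**Figure D2:**
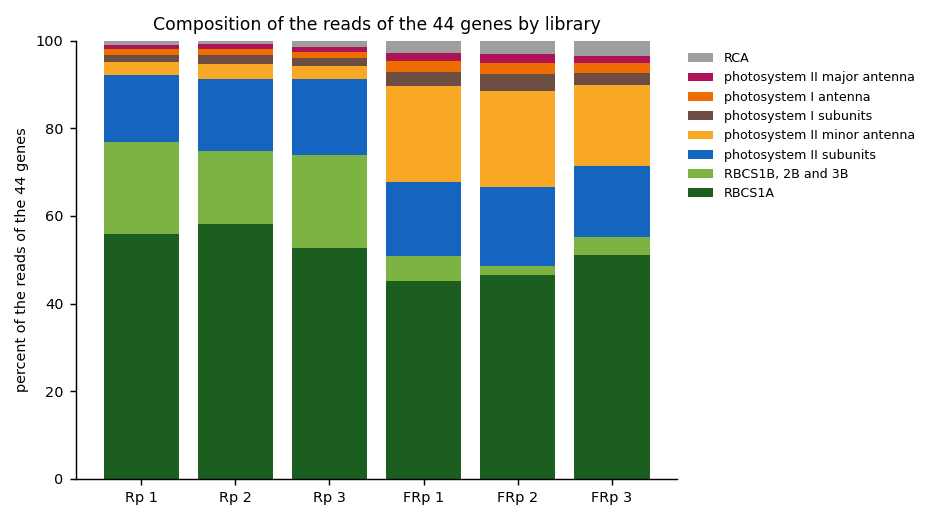
Percent of the reads of the 44 genes (vertical axis) that each role group took in each of the 6 libraries, Rp libraries on the left. RBCS1A is the largest segment in all 6 libraries, the segment of the other 3 RBCS genes covers 16.8% to 21.4% in Rp libraries and 2.16% to 5.86% in FRp libraries, and the minor antenna segment is wide only in FRp libraries.

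All 4 RBCS genes, which encode the small subunit of Rubisco, rose after the Rp, with log2 fold changes between 2.71 and 3.32 in the 3 genes of the B type and 1.097 in RBCS1A. RBCS1A (AT1G67090, chromosome 1) had 777, 656 and 527 CPM in the Rp libraries, against 287, 266 and 365 in the FRp libraries. The groups did not overlap, and its log2 fold change was 1.097 ± 0.16 (SE, n = 3 each; edgeR adjusted p = 4.86e-05). RBCS1B (AT5G38430) had 51.4, 32.1 and 35.0 CPM after the Rp, against 6.08, 1.99 and 4.15 after the FRp. Its log2 fold change of 3.32 ± 0.29 (edgeR adjusted p = 4.46e-07), or 10.0-fold, was the largest of all tested members. RBCS2B (AT5G38420) had 54.2, 34.9 and 44.1 CPM after the Rp, against 11.4, 2.58 and 7.08 after the FRp, a log2 fold change of 2.71 ± 0.34 (edgeR adjusted p = 1.32e-05). RBCS3B (AT5G38410) had 188, 123 and 136 CPM after the Rp, against 19.9, 7.76 and 18.4 after the FRp, a log2 fold change of 3.29 ± 0.28 (edgeR adjusted p = 3.81e-07). In each of the 3 B genes the FRp library of replicate 2 was the lowest of all 6.

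The B genes stand side by side on chromosome 5, with 2528 bases between RBCS3B and RBCS2B and 2081 between RBCS2B and RBCS1B. Their gene models share stretches of 50 bases with each other, at 13.9% of positions in RBCS1B, 21.4% in RBCS2B and 14.6% in RBCS3B, against 1.42% in RBCS1A, so that reads could be split between the copies. Summed over the 3 copies, the level was 294, 190 and 215 CPM in Rp libraries, against 37.3, 12.3 and 29.6 in FRp libraries, and the log2 fold change was 3.15 ± 0.31 (edgeR adjusted p = 1.38e-06). Per length, RBCS1A still held the highest level of the 4 in both conditions, with 638 ± 122 RPKM (CPM per kilobase of exon) in Rp seeds and 298 ± 50.9 in FRp seeds. RBCS3B followed, with 149 ± 34.6 in Rp seeds and 15.4 ± 6.62 in FRp seeds. By this measure RBCS1A ranked between 165 and 216 among all 33602 genes in the Rp libraries and between 355 and 438 in the FRp libraries.

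The sequences upstream of the 4 RBCS genes are shown because these genes all rose and RBCS1B and RBCS3B had the largest fold changes of the tested members. Each run is the 200 bases before the annotated gene start in TAIR10.1, on the coding strand, 5′ to 3′. Capitals mark matches on either strand to the G-box CACGTG, bound by bZIP and bHLH factors, the I-box GATAAG, long described in RBCS promoters, CCAATC, a motif bound by the GLK factors, TATAAA, the TATA box, and the site of the clock factor CCA1 (AAAAATCT or AACAATCT).
RBCS1A, chr1:25049425-25049624, minus strand: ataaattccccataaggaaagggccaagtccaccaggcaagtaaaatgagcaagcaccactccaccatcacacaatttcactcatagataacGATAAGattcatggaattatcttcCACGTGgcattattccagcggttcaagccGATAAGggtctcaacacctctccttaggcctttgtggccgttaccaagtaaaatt
RBCS1B, chr5:15385248-15385447, minus strand: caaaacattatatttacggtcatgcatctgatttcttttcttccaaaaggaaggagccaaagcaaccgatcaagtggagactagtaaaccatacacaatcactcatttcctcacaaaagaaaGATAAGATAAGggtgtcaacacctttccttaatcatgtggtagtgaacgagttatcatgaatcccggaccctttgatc
RBCS2B, chr5:15382036-15382235, minus strand: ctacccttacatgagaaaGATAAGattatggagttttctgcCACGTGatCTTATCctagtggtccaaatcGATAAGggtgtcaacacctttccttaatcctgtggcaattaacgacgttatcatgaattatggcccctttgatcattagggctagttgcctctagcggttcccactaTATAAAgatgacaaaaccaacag
RBCS3B, chr5:15378417-15378616, minus strand: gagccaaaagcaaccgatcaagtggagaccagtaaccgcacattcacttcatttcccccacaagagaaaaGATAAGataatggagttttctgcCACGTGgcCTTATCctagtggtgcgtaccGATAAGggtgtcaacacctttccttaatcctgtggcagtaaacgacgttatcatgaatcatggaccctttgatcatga
RBCS1A, RBCS2B and RBCS3B hold a G-box between I-boxes, while RBCS1B, with the largest fold change, has I-boxes and no G-box in these 200 bases. TATAAA begins at position -23 from the annotated start in RBCS2B, but at 34 in RBCS1B and 31 in RBCS3B, past the runs shown. The runs of these genes therefore do not lie at the same distance from that motif.

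Over the window that runs from 250 bases before to 50 bases after the gene start, 21 of the 44 members held a G-box (47.7%), against 8.15% of 26711 nuclear genes. An I-box was present in 27 members (61.4%), against 15.3% of all genes, and CCAATC in 21 (47.7%), against 13.3%. TATAAA was present in 21 members (47.7%), against 50.7% of all genes, and a CCA1 site in 10 (22.7%), against 9.79%. Matches were counted on both strands, and matches to different motifs may touch or overlap. The G-box was found in 8 of the 15 members called higher, 4 of the 6 called lower and 4 of the 8 not called. The I-box was found in 12 of the 15 called higher, 4 of the 6 called lower and 5 of the 8 not called. Both motifs were therefore present in members that changed in opposite directions. A match of letters is a description and not a site shown to be bound.

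**Figure D3:**
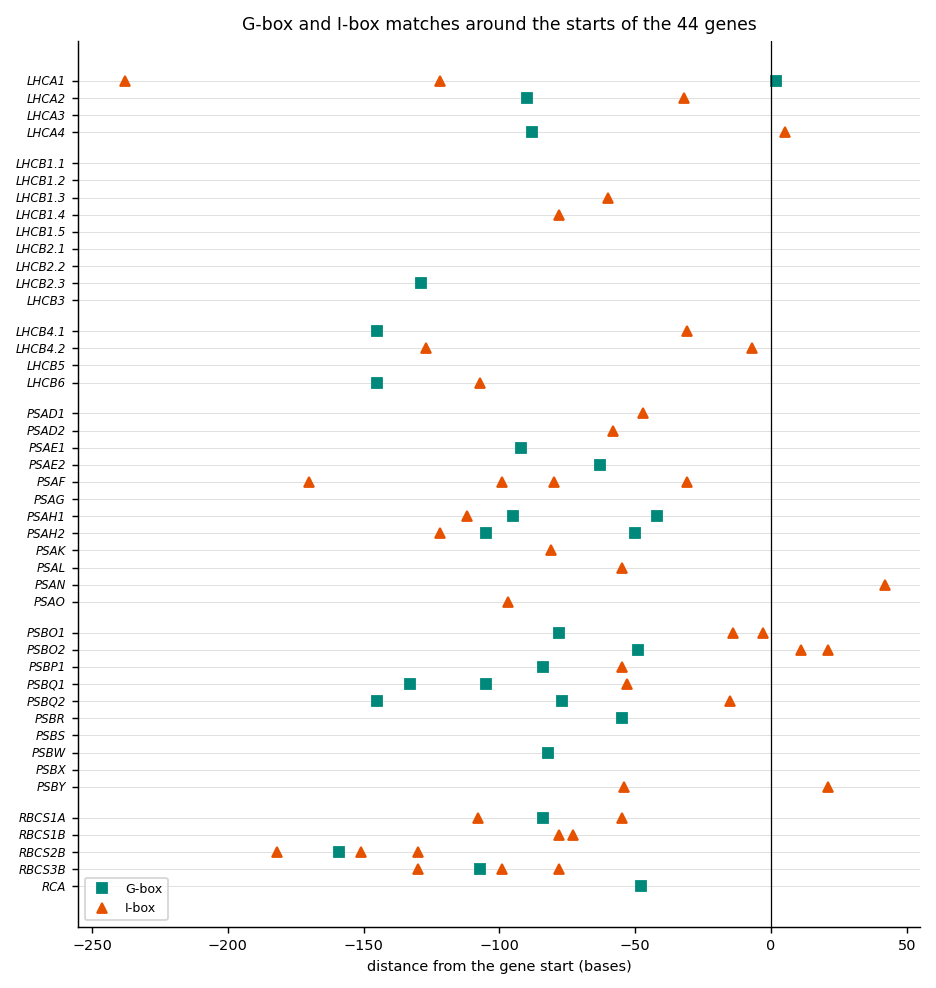
Positions of G-box (squares) and I-box (triangles) matches on either strand, as distance in bases from the annotated gene start (horizontal axis), for each of the 44 genes by role group. The G-box stands in 21 genes and the I-box in 27, and most matches lie upstream of the start.

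RCA (AT2G39730) encodes Rubisco activase, which removes inhibitory sugar phosphates from Rubisco, and it fell while the genes of its target enzyme's small subunit rose. It had 12.0, 9.08 and 14.4 CPM after the Rp, against 17.6, 17.7 and 25.2 after the FRp. The groups did not overlap, with a log2 fold change of -0.77 ± 0.18 (SE, n = 3 each; edgeR adjusted p = 0.0017). Without FRp replicate 3, the highest library, it was -0.57, just under the fold threshold, and scaled by library totals it was -0.33.

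**Figure D4:**
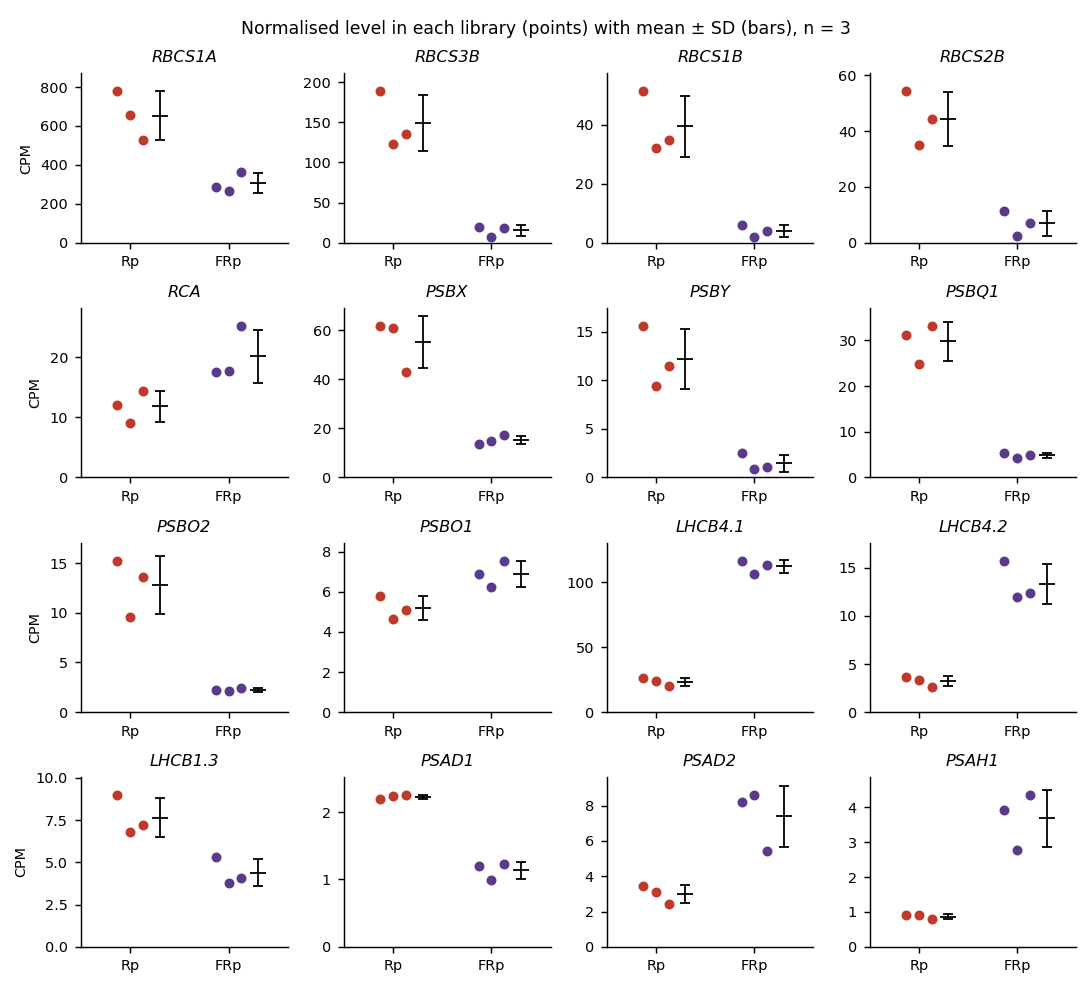
CPM (vertical axis, starting at 0, a scale of its own for each gene) in each library (points), Rp on the left and FRp on the right of each panel, with the mean and SD (bars, n = 3). The 4 RBCS genes, PSBX, PSBY, PSBQ1, PSBO2, LHCB1.3 and PSAD1 are higher after the Rp, while RCA, LHCB4.1, LHCB4.2, PSAD2 and PSAH1 are lower. PSBO1 was not called, and its sign changes when scaled by library totals.

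Among photosystem II subunits, 4 of 8 tested genes rose, 1 fell and 3 were not called, beside 28.8% of all tested genes called higher and 26.8% lower. Of those that rose, PSBY and PSBO2 passed the filter through the Rp libraries alone, so they had to be high there to be tested. PSBY (AT1G67740), a small membrane subunit, had 15.6, 9.45 and 11.5 CPM after the Rp, against 2.49, 0.859 and 1.07 after the FRp. No library overlapped, and the log2 fold change was 3.11 ± 0.32 (SE, n = 3 each; edgeR adjusted p = 2.01e-06). PSBQ1 (AT4G21280), a subunit of the oxygen-evolving complex on the lumenal side, had 31.3, 24.9 and 33.1 CPM after the Rp, against 5.38, 4.29 and 4.98 after the FRp, a log2 fold change of 2.61 ± 0.14 (edgeR adjusted p = 8.97e-09). PSBX (AT2G06520), another small membrane subunit, had 61.7, 60.8 and 42.8 CPM after the Rp, against 13.7, 14.8 and 17.3 after the FRp, a log2 fold change of 1.85 ± 0.15 (edgeR adjusted p = 1.98e-07). Per length PSBX was the highest photosystem gene after the Rp, at 87.4 ± 17.0 RPKM, against 24.2 ± 2.88 after the FRp.

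PSBO1 and PSBO2 encode the protein that stabilizes the manganese cluster of the oxygen-evolving complex, and only PSBO2 rose. PSBO2 (AT3G50820) had 15.2, 9.59 and 13.6 CPM after the Rp, against 2.19, 2.096 and 2.45 after the FRp, a log2 fold change of 2.51 ± 0.20 (edgeR adjusted p = 2.05e-07). PSBO1 (AT5G66570) had 5.80, 4.63 and 5.10 after the Rp, against 6.87, 6.22 and 7.55 after the FRp, a log2 fold change of -0.41 ± 0.17 that missed the fold threshold (edgeR adjusted p = 0.0401) and was 0.02 when scaled by library totals. The upstream sequence of PSBY is shown because it rose most outside the RBCS genes; capitals mark the same motifs as above.
PSBY, chr1:25395155-25395354, minus strand: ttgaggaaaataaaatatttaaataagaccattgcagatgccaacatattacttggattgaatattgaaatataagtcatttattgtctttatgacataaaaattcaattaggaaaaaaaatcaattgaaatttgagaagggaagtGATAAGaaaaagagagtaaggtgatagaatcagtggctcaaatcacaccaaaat
Of the motifs searched, PSBY holds an I-box alone in these 200 bases.

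PSBP1 (AT1G06680), the third lumenal subunit of the oxygen-evolving complex, had 40.2, 36.6 and 36.9 CPM after the Rp, against 28.99, 29.2 and 29.6 after the FRp. The groups did not overlap, but the log2 fold change of 0.37 ± 0.09 was under the fold threshold (edgeR adjusted p = 0.00203). PSBW, a small subunit, averaged 19.1 ± 2.96 in Rp seeds and 15.5 ± 3.18 in FRp seeds (SD, n = 3 each), a log2 fold change of 0.29 that was not called. Scaled by library totals, PSBP1 and PSBW were both called higher, with log2 fold changes of 0.80 and 0.72 (edgeR adjusted p = 3.55e-06 and 5.52e-04). PSBR (AT1G79040), a subunit of the lumenal side, fell, with 20.4, 17.7 and 14.5 CPM after the Rp, against 32.5, 29.8 and 32.4 after the FRp. Its log2 fold change was -0.85 ± 0.12 (edgeR adjusted p = 4.14e-05), and -0.42, under the fold threshold, when scaled by library totals. PSBR shares 51 bases on the opposite strand with AT1G79050, which moved the other way (log2 fold change 0.49), and the sources do not say if counting took strand into account. PSBQ2 and PSBS, the subunit that senses excess light, did not pass the filter. PSBQ2 averaged 0.350 ± 0.291 CPM in Rp seeds and 1.02 ± 0.469 in FRp seeds, and PSBS 0.719 ± 0.218 in Rp seeds and 0.200 ± 0.127 in FRp seeds. Fitted without the filter, their log2 fold changes were -1.53 and 1.77 (edgeR adjusted p = 0.0176 and 0.0146).

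The minor antenna proteins link the major antenna to the photosystem II core, and its tested genes split in direction. LHCB4.1 (AT5G01530), which encodes CP29, had 26.3, 23.8 and 20.1 CPM in Rp libraries, against 117, 107 and 114 in FRp libraries. The groups lay far apart, and the log2 fold change of -2.26 ± 0.11 (SE, n = 3 each; edgeR adjusted p = 4.77e-09), or 4.80-fold lower after the Rp, was the most negative of all tested members. LHCB4.2 (AT3G08940), a second CP29 gene, had 3.69, 3.39 and 2.63 CPM after the Rp, against 15.7, 11.9 and 12.3 after the FRp, a log2 fold change of -2.04 ± 0.18 (edgeR adjusted p = 4.35e-07). LHCB4.1 was the highest antenna gene per length in both conditions, at 19.2 ± 2.55 RPKM in Rp seeds and 92.0 ± 4.21 in FRp seeds.

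LHCB6 (AT1G15820), which encodes CP24, went the other way, with 7.91, 10.4 and 4.58 CPM after the Rp, against 3.64, 4.29 and 3.91 after the FRp. The lowest Rp library lay close to the highest FRp library, and the log2 fold change was 0.94 ± 0.26 (edgeR adjusted p = 0.00527). LHCB6 shares 103 bases on the opposite strand with the more abundant AT1G15810, which also rose. That gene averaged 70.8 CPM in Rp seeds and 34.3 in FRp seeds (log2 fold change 1.05). Reads of the overlap cannot be assigned without strand, and their part in the LHCB6 values and direction was not tested. LHCB5, which encodes CP26, did not pass the filter, with 1.57 ± 0.334 CPM in Rp seeds and 2.44 ± 0.994 in FRp seeds, and a log2 fold change of -0.64 without the filter. The upstream sequence of LHCB4.1 is shown as that of the member that fell most.
LHCB4.1, chr5:208737-208936, plus strand: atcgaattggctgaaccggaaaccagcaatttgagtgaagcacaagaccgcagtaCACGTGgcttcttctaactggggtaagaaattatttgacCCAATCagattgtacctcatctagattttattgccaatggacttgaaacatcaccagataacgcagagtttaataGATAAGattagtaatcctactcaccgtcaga
It holds a G-box, an I-box and CCAATC, motifs that were also found upstream of members that rose.

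The major antenna of photosystem II, the most abundant chlorophyll-binding protein of leaves, was scarcely represented in these seeds. Only 3 of its 9 genes passed the filter, of which 2 rose. Of these, LHCB1.2 passed through the Rp libraries alone. LHCB1.3 (AT1G29930) had 8.96, 6.77 and 7.21 CPM after the Rp, against 5.33, 3.78 and 4.07 after the FRp, a log2 fold change of 0.81 ± 0.19 (SE, n = 3 each; edgeR adjusted p = 0.00172). LHCB1.2 (AT1G29910) had 1.99, 2.04 and 1.49 CPM after the Rp, against 0.349, 0.824 and 0.553 after the FRp, a log2 fold change of 1.63 ± 0.37 (edgeR adjusted p = 0.00161). LHCB3 (AT5G54270), the third component of the trimers, had 3.49, 2.88 and 1.84 CPM after the Rp, against 3.49, 4.84 and 4.03 after the FRp. Its groups barely separated, since the highest Rp and the lowest FRp library were nearly equal, and the log2 fold change of -0.60 ± 0.26 missed the threshold (edgeR adjusted p = 0.0551), while DESeq2 called it lower (adjusted p = 0.0416). It shares 186 bases on the opposite strand with AT5G54280, which averaged 19.3 CPM in Rp seeds and 25.6 in FRp seeds, a log2 fold change of -0.40 in the same direction (edgeR adjusted p = 0.0037), and the part of those reads in the LHCB3 values was not tested.

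The remaining major antenna genes were near the limit of detection. LHCB1.5 had 29, 44 and 16 reads in Rp libraries and 48, 40 and 42 in FRp libraries, with a log2 fold change of -0.99 without the filter, and it shares 99 bases with AT2G34410 on the opposite strand. LHCB2.3 had 0 reads in all 3 Rp libraries, against 4, 6 and 8 in FRp libraries. A count of 0 allows up to 3 reads in each Rp library if reads are independent, and more if both mates of a pair were counted. LHCB1.1 had 9, 2 and 0 reads in Rp libraries and 0, 2 and 2 in FRp libraries, and LHCB1.4 had 2 reads in 1 Rp library and 0 in all others. LHCB2.1 had 7, 0 and 2 reads in Rp libraries and 6, 6 and 3 in FRp libraries, and LHCB2.2 had 1, 0 and 0 in Rp libraries and 0, 4 and 1 in FRp libraries. These copies are alike in sequence, with 10.6% to 20.5% of the 50-base stretches of the LHCB1 genes and 21.9% and 28.2% of those of LHCB2.1 and LHCB2.2 shared with another locus. Summed over the 5 LHCB1 genes, levels were 12.1, 10.4 and 9.14 CPM after the Rp, against 8.07, 6.05 and 6.36 after the FRp, and the sum was called higher, with a log2 fold change of 0.63 ± 0.16 (edgeR adjusted p = 0.00331).

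Of the 3 tested genes of the photosystem I antenna, 1 was called, and it passed the filter through the Rp libraries alone. LHCA2 (AT3G61470) had 2.34, 1.11 and 1.93 CPM after the Rp, against 0.996, 0.928 and 1.07 after the FRp. Its log2 fold change of 0.85 ± 0.35 (SE, n = 3 each; edgeR adjusted p = 0.0417) passed the threshold narrowly, and Rp replicate 2 lay next to the FRp libraries. The call was lost when any of the 3 FRp libraries or Rp replicate 3 was left out, with edgeR adjusted p between 0.0706 and 0.107, and the gene did not pass the filter without Rp replicate 1. Of its 50-base stretches, 8.76% are shared with AT5G28450. LHCA4 (AT3G47470) had 7.29, 6.94 and 5.99 CPM after the Rp, against 10.11, 7.59 and 9.37 after the FRp. Its log2 fold change of -0.42 ± 0.16 was under the fold threshold (edgeR adjusted p = 0.0289) and was 0.02 when scaled by library totals. LHCA3 averaged 5.09 ± 0.794 CPM in Rp seeds and 5.17 ± 0.704 in FRp seeds (SD, n = 3 each), with overlapping groups and a log2 fold change of -0.03. LHCA1 did not pass the filter, with 1.31 ± 0.385 in Rp seeds and 0.660 ± 0.226 in FRp seeds, and a log2 fold change of 0.95 without the filter.

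Among photosystem I subunits, 3 of 7 tested genes rose and 2 fell, beside 28.8% of all tested genes called higher and 26.8% lower. PSAE1 and PSAD1, which rose, passed the filter through the Rp libraries alone. PSAH1, which fell, passed through the FRp libraries alone, so these genes had to be high there to be tested. PSAE1 (AT4G28750), a stromal subunit of the ferredoxin docking site, had 5.33, 4.26 and 3.88 CPM after the Rp, against 1.195, 1.17 and 1.23 after the FRp, a log2 fold change of 1.90 ± 0.25 (SE, n = 3 each; edgeR adjusted p = 1.57e-05). PSAF (AT1G31330), which helps plastocyanin bind, had 5.48, 4.93 and 4.04 after the Rp, against 1.89, 3.30 and 3.40 after the FRp, a log2 fold change of 0.73 ± 0.25 (edgeR adjusted p = 0.0166). The PSAF call was lost without Rp replicate 1 (log2 fold change 0.63, edgeR adjusted p = 0.0673) and without FRp replicate 1 (0.52, edgeR adjusted p = 0.0633). PSAH1 (AT3G16140), a subunit at the docking site of the mobile antenna, had 0.908, 0.905 and 0.786 after the Rp, against 3.93, 2.78 and 4.35 after the FRp. Its log2 fold change was -2.08 ± 0.29 (edgeR adjusted p = 2.73e-05). PSAH1 overlaps AT3G16130 on the opposite strand by 266 bases, and that gene averaged 0.431 CPM in Rp seeds and 1.61 in FRp seeds, so that reads of the overlap cannot be told apart.

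PSAD1 and PSAD2 both encode the stromal subunit that docks ferredoxin, and they changed in opposite directions under every scaling tried. PSAD1 (AT4G02770) had 2.197, 2.25 and 2.25 CPM after the Rp, against 1.195, 0.996 and 1.23 after the FRp, a log2 fold change of 0.97 ± 0.28 (edgeR adjusted p = 0.00671). PSAD2 (AT1G03130) had 3.46, 3.12 and 2.44 after the Rp, against 8.22, 8.59 and 5.42 after the FRp, a log2 fold change of -1.30 ± 0.22 (edgeR adjusted p = 1.63e-04).

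PSAL and PSAO, both at the antenna docking side of photosystem I, were not called. PSAL averaged 1.64 ± 0.249 CPM in Rp seeds and 1.36 ± 0.129 in FRp seeds (log2 fold change 0.28), and PSAO 1.15 ± 0.402 in Rp seeds and 0.905 ± 0.347 in FRp seeds (0.33). PSAL was called higher when scaled by library totals, with a log2 fold change of 0.705 (edgeR adjusted p = 0.0454). The other 5 genes did not pass the filter. PSAH2 averaged 0.951 ± 0.217 CPM in Rp seeds and 0.238 ± 0.088 in FRp seeds. Without the filter its log2 fold change was 2.01 (edgeR adjusted p = 0.00185), and those of the next 3 genes, in brackets, were not called. PSAE2 averaged 0.860 ± 0.273 in Rp seeds and 0.575 ± 0.325 in FRp seeds (0.60), PSAG 0.611 ± 0.084 in Rp seeds and 0.530 ± 0.077 in FRp seeds (0.19), and PSAN 0.956 ± 0.242 in Rp seeds and 0.534 ± 0.368 in FRp seeds (0.78). PSAE2 shares 63 bases on the opposite strand with AT2G20270, which averaged 35.3 CPM in Rp seeds and 10.7 in FRp seeds (log2 fold change 1.72). The part of those reads in the PSAE2 values was not tested. PSAK had 8, 8 and 4 reads in Rp libraries and 0, 2 and 2 in FRp libraries.

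Where a subunit is encoded by several genes, the relative level of the copies separated the pulses in 8 of the 10 pairs compared. This is a description, since no share among pairs of unrelated genes was counted. For PSBO the leading copy itself was another one. The ratio of reads per kilobase of PSBO2 over PSBO1 was 2.63, 2.07 and 2.66 in Rp libraries, against 0.319, 0.337 and 0.325 in FRp libraries. PSBO2 was thus above PSBO1 in all 3 Rp libraries and below it in all 3 FRp libraries. PSAH2 over PSAH1 was 1.32, 0.927 and 1.04 in Rp libraries, against 0.0761, 0.0495 and 0.0637 in FRp libraries, on 25 to 41 reads of PSAH2 in Rp libraries and 4 to 7 in FRp libraries. PSAD1 over PSAD2 was 0.679, 0.770 and 0.985 in Rp libraries, against 0.155, 0.124 and 0.242 in FRp libraries. PSBQ1 over PSBQ2 was 53.2, 106 and 350 in Rp libraries, against 3.99, 5.51 and 9.02 in FRp libraries, with 23, 8 and 4 reads of PSBQ2 in Rp libraries behind the wide spread. RBCS3B over RBCS1A was 0.249, 0.193 and 0.264 in Rp libraries, against 0.0711, 0.0300 and 0.0518 in FRp libraries.

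The CP29 genes LHCB4.1 and LHCB4.2 were an exception. LHCB4.1 over LHCB4.2 was 7.06, 6.96 and 7.58 in Rp libraries, against 7.34, 8.86 and 9.13 in FRp libraries, and the groups overlapped while both genes fell. LHCB4.3, which is not a member and was not among the ratios, did not fall with them. It averaged 6.01 ± 1.08 CPM in Rp seeds and 5.36 ± 1.16 in FRp seeds, a log2 fold change of 0.16 that was not called. LHCB1.3 over LHCB1.2 also overlapped, at 3.24 to 4.73 in Rp libraries and 4.48 to 14.9 in FRp libraries. Ratios did not overlap for PSAE1 over PSAE2 (3.16 to 6.88 in Rp libraries, 1.098 to 2.96 in FRp libraries), LHCB1.3 over LHCB1.5 (4.60 to 16.6 in Rp libraries, 2.23 to 2.75 in FRp libraries) and RBCS3B over RBCS2B (2.65 to 3.05 in Rp libraries, 1.51 to 2.597 in FRp libraries). Of all tested genes taken singly, 78.3% did not overlap, and the share among ratios of unrelated genes was not counted. The ratios were added after the data were seen, and LHCB1.3 and RBCS3B each stand in more than 1 of them. In all, 8 of the 10 ratios did not overlap, a count that is therefore a description. With 3 libraries against 3, the two-sided exact permutation test cannot go below p = 0.1, which these 8 reached (0.125 after Benjamini-Hochberg adjustment over the 10 ratios), so that no ratio can pass 0.05 by this test. A ratio of genes from 1 library does not depend on the scaling between libraries. PSAE2, LHCB1.5 and PSAH1 share bases with genes on the opposite strand, and the part of those reads in their ratios was not tested.

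**Figure D5:**
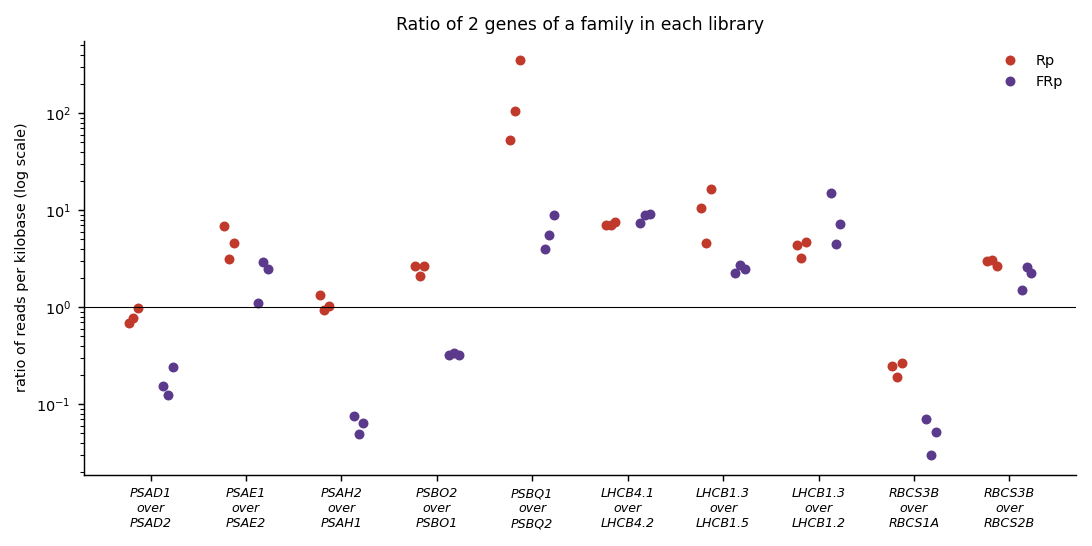
Ratio of reads per kilobase of 2 genes that encode the same subunit (vertical axis, log scale) in each library, Rp in red on the left and FRp in purple on the right of each pair. The line marks equal levels, and the 3 Rp and 3 FRp points separate in 8 of the 10 pairs, most widely for PSBQ1 over PSBQ2, PSAH2 over PSAH1 and PSBO2 over PSBO1.

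Reads on splice junctions gave no called change for these genes. Of 43 events of the members with reads listed, 15 events in 8 genes had enough reads to be tested, and 0 were called, beside 2.49% of 28466 events tested in all genes (edgeR adjusted p under 0.15, with the 2 conditions apart by over 0.5 percentage points). At an unadjusted p under 0.05 there was 1 member event, and 0 were called with robust estimates or with the stricter minimum of 20 reads. That event was retention of an intron of PSBR, at 1.81% ± 0.902 of junction reads in Rp libraries and 0.198% ± 0.173 in FRp libraries (SD, n = 3 each; edgeR adjusted p = 0.218), on at most 5 retained reads per library. The next 4 by p were intron retention in RBCS2B, LHCB4.1, PSBP1 and RBCS1A, all with edgeR adjusted p between 0.404 and 0.468. In RBCS1A, the most deeply covered, retention of this intron was 0.164% ± 0.0353 in Rp seeds and 0.0599% ± 0.0546 in FRp seeds. It rested on at most 2 retained reads per FRp library. Another tested intron of RBCS1A was retained at 0.541% ± 0.155 in Rp seeds and 0.323% ± 0.0244 in FRp seeds (edgeR adjusted p = 0.622).

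RCA is known for an alternative splice site that gives a longer, redox-regulated and a shorter isoform of the activase. The junction files list 1 such choice, between introns of 124 and 113 bases that share the end at position 16571066 of chromosome 2 and differ by 11 bases at the other end. The 42 bases around the choice are shown from the coding strand, with the 11 bases kept by the shorter intron in capitals.
RCA, chr2:16571165-16571206, minus strand: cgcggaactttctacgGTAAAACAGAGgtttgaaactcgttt
Both introns begin with GT and end with AG, so by sequence the differing ends are donor sites, although the deposited label names an alternative acceptor. The 11 bases were kept in 29.2%, 29.8% and 43.4% of these junction reads in Rp libraries, against 43.1%, 31.6% and 35.6% in FRp libraries. The groups overlapped, and the 2 conditions averaged 34.2% ± 8.01 in Rp seeds and 36.7% ± 5.85 in FRp seeds (edgeR adjusted p = 0.952). There were 53 to 65 such reads in each Rp library and 58 to 90 in each FRp library. The log2 ratio of reads that kept the 11 bases to reads that did not changed by -0.16 ± 0.66 (SE). Differences that are not small could therefore also be missed. On simulated data the splicing test recovered 31.0% of events changed 4-fold in odds.

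Genes that work next to the members in photosynthesis were read from 7 further lists, each beside the background of 28.8% called higher and 26.8% lower. The lists were not split by the condition in which a gene passed the filter, so their counts are a description. In electron transport and the ATP synthase, 6 of 9 tested genes were higher and 0 lower, with a median log2 fold change of 1.94. ATPC1, the gamma subunit of the ATP synthase, had 65.3 ± 7.97 CPM in Rp seeds and 10.4 ± 1.601 in FRp seeds (log2 fold change 2.66). FNR2, a ferredoxin-NADP reductase, had 114, 88 and 127 reads in Rp libraries and 2, 9 and 0 in FRp libraries. Its fitted log2 fold change of 4.44 rests on these few FRp reads, and it passed the filter through the Rp libraries alone. In the Calvin-Benson cycle, 5 of 14 tested genes were higher and 5 lower (median 0.10), and the 2 with the largest size of change were GAPA2, a subunit of glyceraldehyde-3-phosphate dehydrogenase (2.03), and TKL1, a transketolase (1.93).

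Among 5 genes that deliver antenna proteins to the thylakoid, 3 were higher and 1 lower (median 0.90). CPSRP43, the antenna-binding part of the chloroplast signal recognition particle, had 56.6 ± 9.02 CPM in Rp seeds and 7.49 ± 2.58 in FRp seeds (log2 fold change 2.93), and LTD rose by 1.32 on the log2 scale. ALB3, the membrane insertase of the same route, was the gene that fell, with 104 ± 6.04 in Rp seeds and 257 ± 12.2 in FRp seeds (-1.30). Of 5 regulators of photosynthesis genes, 4 were higher and 0 lower (median 1.29), led by GNC (1.71) and GLK1 (1.52). Of 5 tested sigma factors of the plastid RNA polymerase, 4 were higher, led by SIG4 (2.58) and SIG1 (2.00), and SIG3 was lower (-0.70). Of 3 tested genes of other antenna-like proteins, LHCB7 was lower (-1.20), and LHCA5 (0.55) and LHCB4.3 (0.16) were not called.

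Of 7 photosynthesis genes encoded in the plastid, psbA alone was tested. It had 23, 159 and 40 reads in Rp libraries and 308, 52 and 467 in FRp libraries, a log2 fold change of -2.35 ± 0.75 (edgeR adjusted p = 0.0122). The groups overlapped, since Rp replicate 2 exceeded FRp replicate 2. Libraries made from polyadenylated RNA take up few plastid transcripts, and the 7 genes together had between 127 and 552 reads in Rp libraries and between 107 and 943 in FRp libraries.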

How the data were processed

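RNA from 6 whole-seed samples, 3 Rp and 3 FRp, was sequenced as paired ends from polyadenylated RNA. The authors aligned reads to TAIR10 with TopHat2 2.1.1 and SAMtools 1.3 (versions as the submitters' processing notes and methods give them) and deposited raw read counts per gene and per splice junction, with replicates not pooled. The sources do not say how strand or reads with several alignments were treated. Of counts between 1 and 20, 64.4% to 66.9% were even in each library, against 49.2% to 50.3% of counts over 500, so that both mates of a pair appear to have been counted. A deposited PSI or PIR column per condition holds the authors' pooled values and was not used.

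Genes with a mean count over 10 and over 0.05 reads per base of exon in at least 1 condition were tested with edgeR 4.0.16 in R 4.3.3 (TMM, quasi-likelihood, Benjamini-Hochberg adjustment over all tested genes), with no replicate term. For splicing, edgeR compared inclusion with exclusion reads, with a coefficient per library, for events with a mean of at least 10 junction reads per library in each condition and 5 reads on each side. Tested on simulated data, the gene test recovered 96.5% of genes changed 2-fold among 16568 genes, with 3.5% of its calls unchanged genes. The splicing test recovered 31.0% of events changed 4-fold in odds among 21513 events, with 6.06% of its calls unchanged events. Both simulations placed changes only in genes or events with more reads than the filters ask. The gene simulation used the same spread for all genes and no shift in composition. These rates do not cover members with few reads. Alternatives were DESeq2 1.42.0, other scalings, filters and thresholds, a replicate block, summed copies and leaving out each library.

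The members and the gene lists were chosen with earlier results of these data known. By rule, all 44 members are named, with values per library for the highest and the lowest (most negative) log2 fold change of each role group and for copies of a subunit. No fold change is given for 6 members with at most 10 reads in every library. The ratios between copies were added after the data were seen. The files' coordinates were read on TAIR10.1, where 32834 of 32835 shared loci overlap on the same chromosome, and the upstream sequences were cut from that RefSeq genome at the gene starts of the files. In the count table, 8 members overlap another gene, on the opposite strand, and in the TAIR10.1 annotation 17 do, 16 of them on the opposite strand. Shared stretches are runs of 50 bases found in another locus. Plots used matplotlib 3.10.9 (Python 3.11.15). SDs and SEs cover the spread between libraries, and the limit given for 0 reads covers counting error only.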

Additional observations from a re-analysis of the deposited data

How the results depend on the processing

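Under DESeq2, the exact test of edgeR, upper quartile scaling, other filters, the larger fold threshold, summed copies and each left-out library, between 10 and 17 members were called higher, and scaled by library totals 18 were, with PSBP1, PSBW and PSAL added. Without the filter on low counts 10 members were called lower, 3 of them newly tested (LHCB1.5, LHCB2.3 and PSBQ2) and LHCB3, whose adjusted p was then 0.0316. In the same fit PSAH2 and PSBS, also newly tested, were called higher (edgeR adjusted p = 0.00185 and 0.0146). Over all genes, 7524 were called higher and 2568 lower with library totals, and 3088 higher and 2669 lower at a fold change over 2. LHCA3, which was not called, turned to 0.40 (log2) with library totals and 0.091 with upper quartile scaling, and lay between -0.12 and 0.10 when 1 library was left out. LHCA4 turned to 0.015 and PSBO1 to 0.022 with library totals. Samples with the same replicate number did not deviate together (correlations of 0.07, -0.11 and -0.06), so the numbers were not taken as pairs. With a replicate block, 14 members were called higher and 6 lower, since LHCA2 was no longer called (edgeR adjusted p = 0.0677). Over all splicing events, 206 were called with the replicate block and between 350 and 509 when 1 library was left out, and 0 member events were called in any of these fits. Depth limits the 15 members that could not be tested and the splicing of all but the most abundant genes.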
